A study of Drosophila melanogaster with 6 samples.

Results

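Peaks narrower than 2 kb on the right arm of chromosome 3 (3R) of Drosophila melanogaster were taken from a chromatin immunoprecipitation and sequencing (ChIP-seq) peak list. They were chosen by position and width, as all rows on sequence 3R (and not on 3RHet, a separate piece of heterochromatin) with an end minus start plus 1 under 2000 bp. The list held 9881 peaks, of which 476 lay on 3R and 424 of those were under 2 kb. The same rule gave 322 peaks on X, 428 on 2L and 467 on 3L, which serve as the comparison.

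The study sequenced white prepupae, animals at the brief stage when the larva has stopped moving and the pupal case has not yet darkened. Of its libraries, 3 were ChIP DNA, pulled down with a monoclonal mouse antibody listed against tango, and 3 were input DNA taken without a pull-down. Both groups came from the strain Y cn bw sp, with no other treatment or age given. Its listed genotype carries y[1] and oc[R3.2] on X. On chromosome 2 it carries Gr22b[1], Gr22d[1] and cn[1] together with CG33964[R4.2], bw[1] and sp[1]. On chromosome 3 it carries LysC[1], lab[R4.2] and MstProx[1] together with GstD5[1] and Rh6[1]. A RefSeq gene table of release 6 places lab, MstProx, GstD5 and Rh6 on 3R, so the ChIP and input animals alike carry listed alleles on this arm. A single stock was used, and whether the replicates were separate collections of animals is not stated in the labels.

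As background, tango is the fly protein that matches ARNT of vertebrates. This bHLH-PAS transcription factor works in pairs with proteins such as single-minded in midline cells and trachealess in the tracheal system. The library titles begin with TCF, a name used for the HMG-box factor that carries the Wingless (Wnt) signal to its target genes and is encoded in the fly by pangolin. In the release 6 gene table the tango gene (tgo) is itself on 3R, and pangolin (pan) is on chromosome 4. Since titles and antibody entry disagree, the peaks below are ascribed to neither protein. White prepupae form at a pulse of the steroid hormone ecdysone, when larval tissues start to break down and imaginal discs start to unfold into adult structures. The 3R arm carries the Antennapedia and bithorax complexes, the clusters of Hox genes that give body segments their identity. Positions below are of FlyBase release 5, 1-based. No release 5 genome or annotation was used, so genes, exons and sequences at the peaks are not analysed here.

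The measured quantities were the position, the width and a score that the authors' peak caller gave to each peak. The score ranks peaks within this list, but which statistic it is was not given in the sources used here, and it is not read as occupancy. For the 6 libraries the values used are those of 1 list, which holds none per library, so n is 1 list, the spread between replicates is unknown and read depth is unknown. Width and position chose the peaks and the score came from the same peak call. No test is therefore given and no difference between arms is claimed beyond the values. Intervals are 95% (Wilson for shares, order statistics for medians, exact Poisson for densities). Only counting error is in them, and they count each peak as independent, which neighbouring peaks are not.

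The 3R peaks under 2 kb were mostly short and low in score, with a small number of very high ones. Their widths ran from 201 to 1945 bp. The median width was 501.5 bp, the quartiles were 328.5 and 810.75 bp, and 7 had the narrowest width of 201 bp. The lowest score was 6.59 and the highest 754.91. The median was 19.925 (interval 17.79 to 21.54) and the quartiles were 12.88 and 38.19. Scores under 20 belonged to 212 of the 424 peaks, while 83 scored 50 or more, 42 scored 100 or more and 6 scored 500 or more. No 3R peak under 2 kb scored between 99.18 and 112.35, so the limit of 100 used below falls in a small gap between values. The 5 highest-scoring peaks held 16.4% of the summed score of all 424. Since the statistic behind the score is unknown, this is not a share of signal. Together the 424 peaks covered 263.9 kb, which was 58.2% of the bases covered by 3R peaks of every width.

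Score distributions on the 4 arms lay close together. The median score was 21.24 on X (interval 19.2 to 23.06), 19.78 on 2L (18.35 to 21.84) and 18.35 on 3L (17.23 to 19.48), and the 3R interval overlapped each of these. Of the 3R peaks, 50.9% (interval 46.2 to 55.7%) scored above 19.48, the pooled median of the other 3 arms. Scores of 100 or more belonged to 9.91% of the peaks on 3R (interval 7.41 to 13.1%), 12.1% on X (8.99 to 16.1%), 11.2% on 2L (8.56 to 14.6%) and 10.9% on 3L (8.40 to 14.1%). Median widths were 517 bp on X, 485.5 bp on 2L and 524 bp on 3L, against 501.5 bp on 3R (interval 446 to 551 bp). Of the 20 highest-scoring peaks under 2 kb on the 4 arms, 3R and 2L held 7 each, 3L held 4 and X held 2. Of all 1641 such peaks 3R held 25.8%, 2L 26.1%, 3L 28.5% and X 19.6%. No excess on an arm is read from such small counts. The highest of each of the other arms were 3L 18178706 to 18179496 with a score of 927.33, 2L 479978 to 481610 with 887.53 and X 1528849 to 1529563 with 596.15.

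**Figure D1:**
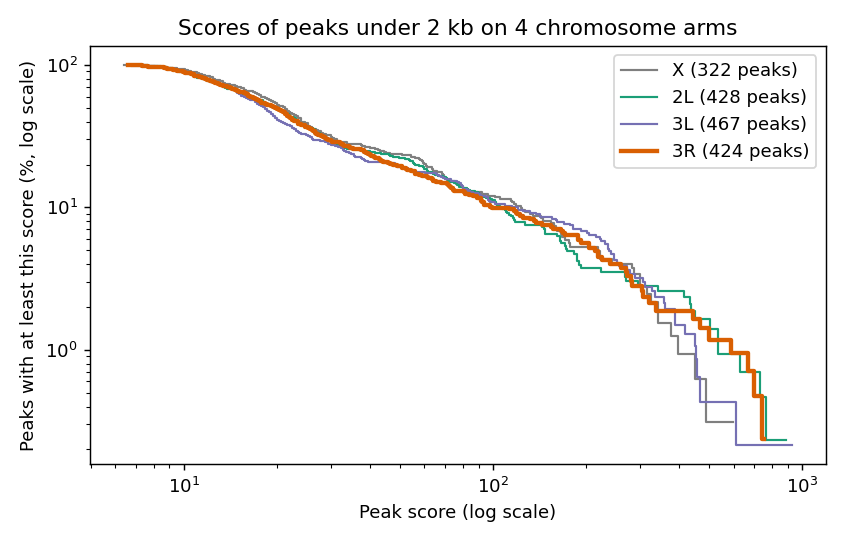
Percentage of peaks under 2 kb (log scale) that reach a given peak score (log scale), for 424 peaks on 3R, 322 on X, 428 on 2L and 467 on 3L. The 4 curves run close together up to a score of about 100, which 9.91% of the 3R peaks reach, and the 3R curve ends at 754.91.

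Spacing was set beside that of the other arms next. Between the outermost 3R peaks there were 15.3 per Mb (interval 13.9 to 16.8), against 17.5 per Mb (16.6 to 18.5) on the other 3 arms pooled. By arm the density was 14.4 per Mb on X (12.8 to 16.0), 18.9 on 2L (17.1 to 20.8) and 19.2 on 3L (17.5 to 21.01). The 3R interval thus overlapped that of X and lay below those of 2L and 3L. It overlapped those of 2L and 3L among the 50% of all 9881 peaks that scored highest (6.71 per Mb on 3R, 8.56 on 2L and 7.31 on 3L), after gaps under 500 bp were joined and without the outer 2 Mb of each arm. These settings held fewer peaks, and in each the 3R value itself stayed below those of 2L and 3L. The distance from a 3R peak under 2 kb to the nearest other 3R peak of any width had a median of 2395.5 bp, against 742 bp on X, 961 bp on 2L and 857 bp on 3L. All these medians fell between 500 bp and 5 kb, a class with few peaks (16.7% on 3R, 16.5% on X, 19.2% on 2L and 22.5% on 3L). A small change in shares can thus move them far, and no interval is given for them. A neighbour within 500 bp was found for 175 of the 424 (41.3%, interval 36.7 to 46.0%). On the other arms this share was 47.8% on X (42.4 to 53.3%), 45.8% on 2L (41.1 to 50.5%) and 43.5% on 3L (39.0 to 48.0%), so the 3R interval overlapped that of each other arm. At the other extreme, 64 of the 3R peaks (15.1%) had no other peak within 50 kb, against 14.9% on X, 9.35% on 2L and 11.1% on 3L.

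On 3R, peaks with a close neighbour scored low and separate peaks supplied nearly all the high scores. Of the 175 peaks with another peak within 500 bp, 3 scored 100 or more (1.71%, interval 0.585 to 4.92%). Of the 249 others, 39 did (15.7%, interval 11.7 to 20.7%). The median scores were 16.43 and 25.91. With rising distance to the nearest peak the median score was 16.43 under 500 bp, 17.79 from 500 bp to 5 kb, 30.075 from 5 to 50 kb and 33.055 at 50 kb or more. The share of peaks scoring 100 or more was 14.1%, 16.7% and 15.6% in the last 3 classes, whose intervals overlapped. The comparison arms gave low shares in the class under 500 bp as well, with 3.25% on X, 2.55% on 2L and 0.985% on 3L.

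**Figure D2:**
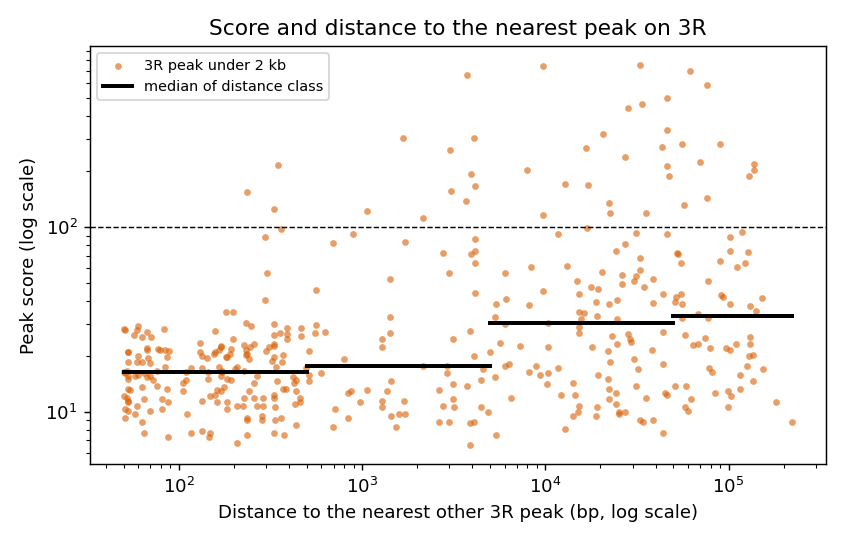
Peak score (log scale) of each of the 424 3R peaks under 2 kb against the distance in bp (log scale) to the nearest other 3R peak of any width; black bars are medians of the 4 distance classes and the dashed line marks a score of 100. Of the 175 peaks left of 500 bp 3 lie above the dashed line, and of the 249 to the right 39 do.

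**Figure D3:**
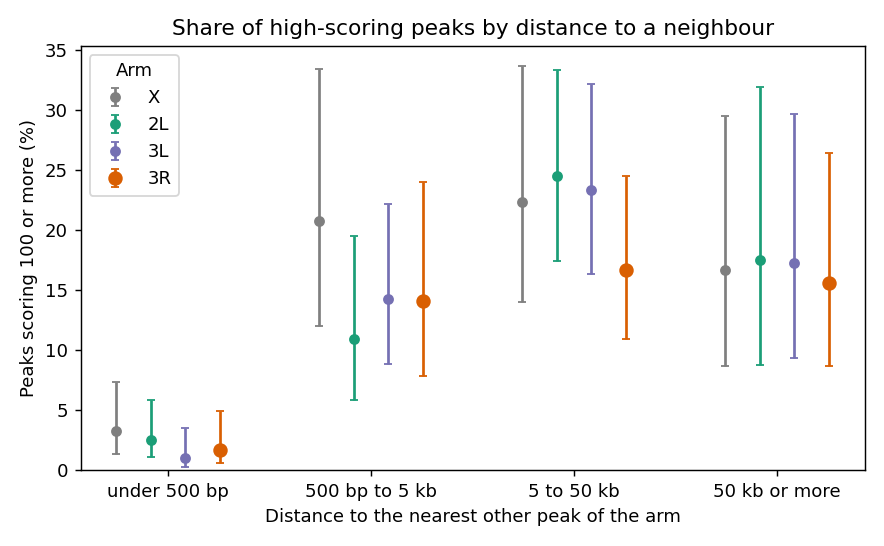
Percentage of peaks under 2 kb that score 100 or more, by distance to the nearest other peak of the same arm, for X, 2L, 3L and 3R; bars are 95% Wilson intervals for counting error. In the class under 500 bp the shares are 0.985 to 3.25%, and the 3R share there is 1.71%.

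Low scores beside a neighbour were also found among peaks of like width. Peaks on 3R with a neighbour within 500 bp were wider, with a median of 614 bp against 445 bp for the others. In the class of 400 to 600 bp, 1 of 32 peaks with a close neighbour scored 100 or more, against 14 of 63 without one, and the median scores were 15.775 and 41.65. At 600 bp to 1 kb it was 1 of 40 against 17 of 57, with median scores of 19.78 and 56.15. From 1 to 2 kb it was 0 of 49 against 8 of 21, with median scores of 20.65 and 65.61. Below 400 bp, high scores were rare in either case, at 1 of 54 and 0 of 108.

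Width and score were related on 3R, though over all 424 peaks the median score rose only up to about 1 kb. Spearman's rho between them was 0.46 across the 424 peaks, which share libraries and depth and are not replicates, against 0.39 on X, 0.49 on 2L and 0.56 on 3L. The median score was 11.24 for the 82 peaks under 300 bp, 18.07 for the 80 from 300 to 400 bp, 24.63 for the 95 from 400 to 600 bp and 26.88 for the 97 from 600 bp to 1 kb. It was 22.3 for the 70 peaks from 1 to 2 kb. Scores of 100 or more were reached by 0 of 82, 1 of 80, 15 of 95, 18 of 97 and 8 of 70 peaks in the same classes. Of the 70 peaks from 1 to 2 kb, 49 had a neighbour within 500 bp. Their median score was 20.65, against 19.78 for such peaks of 600 bp to 1 kb. Without a close neighbour the medians were 65.61 and 56.15 in the same order, so neither group showed the fall from 26.88 to 22.3. The 5 widest, 1770 to 1945 bp, scored between 15.64 and 23.37, near the median of 19.925 for all 424. Among 3R peaks at the 2 kb limit the widest inside was 20556072 to 20558016 with a width of 1945 bp and a score of 22.45. The 5 narrowest outside were 2034 to 2192 bp wide, with scores of 25.91, 25.26, 34.13, 16.97 and 312.48.

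**Figure D4:**
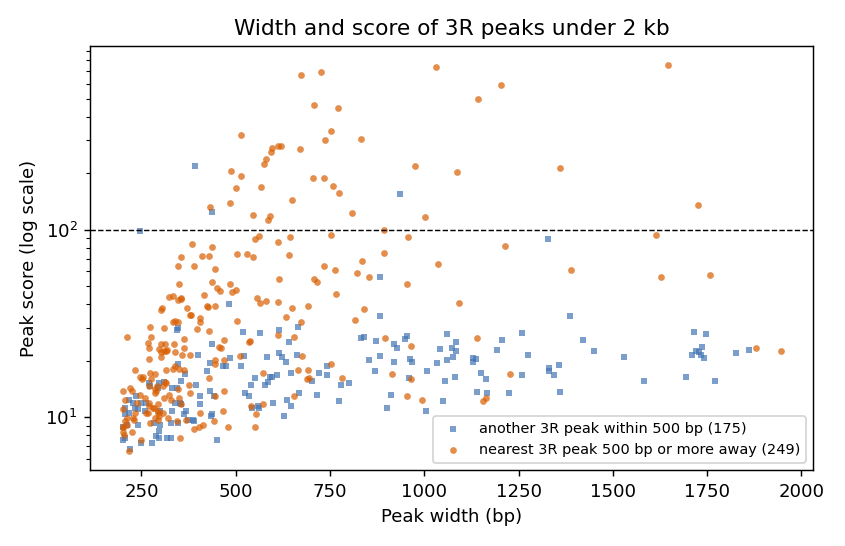
Peak score (log scale) against peak width in bp for the 424 3R peaks under 2 kb, marked by whether another 3R peak lies within 500 bp (175 squares) or not (249 circles); the dashed line marks a score of 100. The squares from 1 to 2 kb all lie below the line, and 8 of the 21 circles there lie above it.

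Of the 20 highest-scoring peaks 16 were under 1 kb wide, as were 354 of all 424. All 20 were wider than the median 3R peak under 2 kb. No other peak lay within 5 kb for 16 of the 20. Of all 424, 114 (26.9%) had their nearest peak 5 to 50 kb away and 64 (15.1%) had it 50 kb or more away. The highest, 3R 7603888 to 7605533, was 1646 bp wide and scored 754.91. It had no other 3R peak within 32876 bp. The next, 3R 11054707 to 11055736, was 1030 bp wide with a score of 740.97, and its nearest neighbour was 9689 bp away. The third, 3R 24983369 to 24984095, was 727 bp wide with a score of 698.6 and stood 61485 bp from the nearest peak. All 3 lay farther from a neighbour than the median 3R peak under 2 kb.

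The fourth, 3R 9809098 to 9809770, was 673 bp wide with a score of 669.43. A peak of 470 bp that scored 13.85 lay 3720 bp before it. The peak at 11168292 to 11169494, 1203 bp wide with a score of 590.54, followed the one at 11054707 after 112555 bp with no peak between them. The sixth, at 13219959 to 13221101, was 1143 bp wide and scored 501. The seventh and eighth, at 26016997 to 26017704 and 14620915 to 14621684, were 708 and 770 bp wide and scored 465.66 and 443.95. These 8 thus lay at 7 places more than 1 Mb apart on the arm, with the pair near 11.1 Mb as 1 place and the others single.

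The other 12 of the 20 highest scored 219.32 to 336.09. They were at 17747308 to 17748060 (score 336.09), 7052050 to 7052563 (320.3), 20031438 to 20032269 (305.5) and 7026327 to 7027062 (302.42). Next came 21341298 to 21341909 (281.07), 21463053 to 21463672 (280.32), 18021332 to 18021927 (271.33) and 16927376 to 16928045 (268.35). The last 4 were 19189109 to 19189702 (260.2), 7685147 to 7685726 (239.14), 23043061 to 23043636 (224.93) and 18416089 to 18417064 (219.32). Over all 20 the widths ran from 514 to 1646 bp with a median of 717.5 bp, and 16 were under 1 kb. Their nearest neighbours lay 1672 to 137456 bp away, with a median of 33271.5 bp.

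Of the 20 highest peaks 4 had another peak within 5 kb, and that companion scored far lower in each, as at 9809098 above. The 20 were picked for their scores, and the upper quartile of all 424 was 38.19. A far lower companion was therefore likely from that choice alone. At 7026327 to 7027062 the companion 4068 bp away was 201 bp wide and scored 8.86 against 302.42. At 19189109 to 19189702 a companion of 294 bp, 3008 bp away, scored 10.79 against 260.2. At 20031438 to 20032269 the companion, 1672 bp away, was itself 3958 bp wide and scored 24.94 against 305.5. Among the 3 peaks scoring 100 or more with a neighbour within 500 bp, 16092218 to 16092653 scored 124.91 beside a peak of 1073 bp with 23.37, and 18194042 to 18194978 scored 154.44 beside a peak of 201 bp with 7.5. The last of these 3, at 1271671 to 1272062, was 392 bp wide and scored 217.92, the same value as the 5777 bp peak 346 bp after it.

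The 42 peaks scoring 100 or more were spread along most of the arm, from 0.204 Mb to 26.9 Mb. In 28 bins of 1 Mb, 24 held at least 1 of them. The 4 without one were 2 to 3, 5 to 6, 8 to 9 and 27 to 28 Mb. The distance from one such peak to the next had a median of 473258 bp on 3R, against 332650 bp on X, 240146 bp on 2L and 359950 bp on 3L, and 7 of 41 such distances on 3R were under 100 kb. In 4 equal parts of the 3R span, counted from the low (centromere) end, 9 of 110, 9 of 89, 14 of 104 and 10 of 121 peaks scored 100 or more. The shares were 8.18%, 10.1%, 13.5% and 8.26%, with overlapping intervals of 4.36 to 14.8%, 5.41 to 18.1%, 8.19 to 21.3% and 4.55 to 14.5%. The median scores were 16.3, 19.2, 23.37 and 20.36. Peaks with a neighbour within 500 bp made up 47.3% and 44.6% of the outer 2 parts and 33.7% and 37.5% of the inner 2. On the other arms the parts are also ordered by position. A part there need not match the same part of 3R in distance to the centromere. In order of position the 4 parts gave 54.1%, 40.5%, 45.8% and 48.0% on X. They gave 29.5%, 39%, 51.5% and 58.1% on 2L, and 36.3%, 38.5%, 36.4% and 58.2% on 3L. No intervals are given for these shares.

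The number of peaks per Mb of 3R ran from 2 to 28 with a median of 14.5. The fullest bins were 0 to 1 Mb with 28 peaks, 10 to 11 Mb with 27 and 26 to 27 Mb with 25, and their median scores were 16.435, 18.63 and 20.07. The bin at 7 to 8 Mb held only 12 peaks but had the highest median score of the 28, 56.025, and 4 peaks of 100 or more. The bin at 9 to 10 Mb held 8 peaks with a median of 55.535. Between them, 8 to 9 Mb held 2 peaks, with a highest score of 17.79.

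The arm also held 2 long stretches without a peak under 2 kb. One ran from 7803997 to 8838009, or 1034 kb, and contained a single broad peak of 4360 bp at 8746348 to 8750707 that scored 63.31. The other ran from 2340724 to 3261970, or 921 kb, and contained a single peak of 2192 bp at 2915092 to 2917283 that scored 312.48. The next longest on 3R was 450.2 kb, from 3388784 to 3838970, with no broad peak inside. The longest stretch without a peak under 2 kb was 595 kb on X, 502 kb on 2L and 533 kb on 3L. With peaks of every width counted, the longest gap was 942350 bp on 3R, 591266 bp on X, 456402 bp on 2L and 464214 bp on 3L. Gaps over 200 kb numbered 28 of 475 on 3R, 34 of 390 on X, 23 of 499 on 2L and 31 of 532 on 3L. Gaps in the assembly and places where reads cannot be mapped were not examined.

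Peaks that lay in long runs on 3R had low scores, as did 3R peaks with a close neighbour. When 3R peaks less than 5 kb apart were put together, 277 runs held at least 1 peak under 2 kb, and 197 of these (71.1%) held exactly 1. That share was 66.7% on X, 66.3% on 2L and 65.0% on 3L. Runs of 5 or more numbered 10 on 3R and took in 57 peaks, or 13.4% of the 424, against 14.9% on X, 23.1% on 2L and 16.1% on 3L. The fullest 3R run, at 1984457 to 1992774, held 10 peaks in 8.318 kb with scores of 7.5 to 19.78. The next, at 23169377 to 23176881, held 7 with scores of 9.27 to 21.84. The other 8 held 5 each, were 3.79 to 8.17 kb long and had highest scores of 11.47 to 56.15, so none of the 10 runs held a peak of 100 or more. Of all 424 peaks 9.91% did score 100 or more, and of those with a neighbour within 500 bp 1.71% did. Long runs were not set apart from close neighbours. On the other arms the highest score in such runs was 176.77 on X, 46.84 on 2L and 327.37 on 3L.

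Close neighbours differed less in score than distant ones. Of 129 neighbouring pairs on 3R with a gap under 500 bp and at least 1 peak under 2 kb, 111 (86.0%) differed in score by less than 2-fold, with a median ratio of the higher to the lower of 1.40. Of the 339 pairs farther apart 157 (46.3%) did, with a median ratio of 2.14. These ratios describe score values, not amounts of signal, because the statistic behind the score is unknown. Scores of 3R peaks with a neighbour within 500 bp also had a narrower range, with quartiles of 11.93 and 21.54 against 13.85 and 63.77. Peaks not next to each other were not compared, so likeness beyond this narrower range is not shown. On X, 2L and 3L 79.8%, 83.2% and 86.7% of close pairs differed by less than 2-fold. The narrowest gap on each of the 4 arms was 50 bp, and 45 of the 475 gaps between 3R peaks of every width were under 100 bp.

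Beside the broad peaks, 36 of the 424 3R peaks (8.49%) lay within 500 bp of a 3R peak of 2 kb or more, of which there were 52. They had a median score of 21.995 and a median width of 731.5 bp, against 15.12 and 544 bp for the 139 whose close neighbours were all under 2 kb. The share beside a broad peak was 19.6% on X, 10.3% on 2L and 9.21% on 3L. Peaks of 2 kb or wider numbered 69 on X, 72 on 2L and 66 on 3L. The lowest-scoring 3R peaks numbered 7, since 3 tied at the fifth lowest score of 7.5. They were 201 to 451 bp wide. The lowest of all, 715071 to 715288, scored 6.59 and was 3889 bp from its nearest neighbour. Another, 16950375 to 16950623, was 5358 bp from its own, and the other 5 had a neighbour within 500 bp.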

How the data were processed

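The submitters' processing notes name MACS2, BWA and CASAVA (1.7.0.2, also 1.7.0.3) with the build BDGP5. Per the file headers, positions are of FlyBase release 5. For each peak the authors deposited a position and a score. Thresholds, read filters and the handling of replicates and input are not stated in the sources used here. Depth per library is unknown. Peaks were grouped by arm and width. Distances are bases between the end of one peak and the start of the next, peaks of every width included. Densities use the span between the outermost peaks of an arm. Named peaks were the 20 highest, 5 lowest and 5 widest on 3R, the 5 narrowest of 2 kb or more, the fullest runs and bins, the longest empty stretches and the highest peak of each other arm. For runs the rule asked for 5, and 8 tied at 5 peaks are given together, as are ties among the lowest scores. The companions of high peaks and other bins were chosen after their values were seen. The peaks compared, the score limit of 100 and the distance limits were chosen with earlier results of these data known. The release 6 gene table served only to give the arm of named genes, and its coordinates were not used. The distance and joining steps were tested on simulated data. Software was pandas 2.3.3, scipy 1.17.1, numpy 2.4.6 and matplotlib 3.10.9 under Python 3.11.15.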

Additional observations from a re-analysis of the deposited data

How the results depend on the processing

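Alternatives were peaks under 1 kb, peaks of any width, the 50% of all 9881 peaks with the highest scores (the top 50%), gaps under 500 bp joined before the width limit and removal of the outer 2 Mb of each arm's span. Those on close neighbours were added after the data were seen. Of 48 values, 31 stayed within the interval of the reported value (for counts, within 1.5 times). Of 424 3R peaks, 186 were left in the top 50% and 270 after joining, by construction. The median score of 19.925 became 43.025 and 24.63 in these settings. The 3R share of peaks on the 4 arms, 25.8%, stayed within its interval in all 5. The density of 15.3 per Mb became 12.8 under 1 kb, 17.2 at any width, 6.71 in the top 50% and 9.74 after joining. Its interval lay below those of 2L and 3L for peaks under 1 kb and of any width, but overlapped both in the top 50% (5.78 to 7.74 on 3R, 7.40 to 9.85 on 2L, 6.28 to 8.47 on 3L), after joining (8.61 to 10.97, 9.87 to 12.7 and 10.86 to 13.7) and without the outer 2 Mb (12.5 to 15.6, 15.3 to 19.1 and 15.3 to 19.0). The 3R density itself was below that of 2L and of 3L in every setting. The median width of 501.5 bp became 431 bp under 1 kb, 562.5 bp at any width and 611.5 bp in the top 50%. The share scoring above the median of the other 3 arms fell from 50.9% to 44.6% (interval 37.7 to 51.8%) in the top 50%. The median score there was also lower on 3R (43.025) than on X (46.44), 2L (48.075) and 3L (51.63). Its 3R interval, 38.19 to 52.27, took in the medians of all 3 other arms. The cause of these lower values was not tested. The share with a neighbour within 500 bp, 41.3%, was 35.6% under 1 kb, 17.2% in the top 50%, and 0% after joining by construction. Spearman's rho of 0.46 between width and score was 0.094 in the top 50%, which were picked by score. Members with a near neighbour had a median score of 14.735 for peaks under 1 kb, against 16.43, and their median stayed below that of members without one in all 4 alternatives (14.735 to 16.3 against 22.605 to 29.39). No paired analysis was possible because no value per library is held in the list, which also means that leaving out a replicate could not be tried.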

Other observations

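Near the low end of 3R, 2 places each held a short peak beside a broad one, and the broad peaks of both places were almost equal in width. These places were picked out after the list was seen. On 3R, 36 peaks under 2 kb (8.49%) lay within 500 bp of a peak of 2 kb or more, so such a position was not rare. How often broad peaks at such places are almost equal in width was not counted. The first peak of the arm, 96493 to 102236, spanned 5744 bp and scored 191.96, and 360 bp beyond it lay a peak of 247 bp that scored 98.11. At 1271671 to 1272062 the short peak came first, with a width of 392 bp and a score of 217.92, and after 346 bp came one 5777 bp wide with the same score. The sequences at these positions were not analysed here. The short peaks of both places are among those counted as having a neighbour within 500 bp, and the second supplied 1 of the 3 scores of 100 or more there.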
